A study of Homo sapiens with 6 samples.

Results

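Interferon-stimulated genes outside the IFITM family were examined in A549 cells that carried an shRNA against S100A4 and in A549 cells that carried a control shRNA. The set was a list of 37 named genes, taken by symbol with no threshold on a measured value, and all 37 were found among the 25141 genes with a value. Each had 1 named transcript cluster, meaning the group of probes that covers a locus. The A549 line was established from a human lung adenocarcinoma. Both groups stably expressed a lentiviral shRNA, either a control or one targeting S100A4, in serum-containing medium, and 3 arrays labelled as biological replicates were made per group. The labels name 1 shRNA per group, no interferon treatment and no infection, and they differ on the number of days in culture. The series asks which molecules act downstream of S100A4, a calcium-binding protein associated with metastasis.

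Interferons are secreted proteins that cells release on sensing viral or misplaced nucleic acid. Type I and type III interferons bind their receptors, activate JAK1 and TYK2, and lead to a complex with STAT2 and IRF9 that binds the interferon-stimulated response element (ISRE) in promoters, while type II interferon acts through the gamma-activated site (GAS). The induced genes encode RNA sensors, effectors that block viral replication, and regulators that amplify or end the response. Many of them are also expressed at a low basal level in epithelial cells without added interferon.

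S100A4 itself read 7.57, 7.12 and 7.18 in the control group against 5.74, 5.51 and 5.44 under S100A4 shRNA (log2 signal). It was lower on every S100A4 shRNA array, at a log2 fold of -1.73 with an SE of 0.13 (limma adjusted p = 0.000453). The two-sided exact permutation p was 0.1, which no comparison of 3 with 3 can go below. The array's negative housekeeping controls, which lie in introns, had medians between 4.18 and 4.27 per array, and this was taken as the level of no signal. The antigenomic negative controls, a separate set, had lower medians, between 3.03 and 3.23. Below, negative controls means the housekeeping set. The positive housekeeping controls were 0.23 lower with S100A4 shRNA (exact permutation p = 0.1, two-sided). A list of epithelial and A549 markers had array medians from 11.92 to 12.21 in the control group. Under S100A4 shRNA they ran from 12.43 to 12.57, without overlap. These medians lie between the values of AKR1C1 and AKR1C3 and so follow those genes, not the keratins or CDH1. Of 8 such markers 4 rose, CDH1 (log2 fold 0.97), AKR1C1 (0.47), KRT19 (0.42) and AKR1C3 (0.34). KRT8 (-0.44) and KRT18 (-0.58) were the 2 that fell. Their part in the results was not tested. Leukocyte markers had medians between 3.998 and 4.150 and fibroblast and endothelial markers between 4.29 and 4.50, near the negative controls. PTPRC, which all leukocytes express, had means of 3.83 and 3.74. Fewer expressing cells and less RNA per cell cannot be told apart in such bulk RNA. The p-values cover the spread between these arrays and no difference between shRNAs or between lines made independently.

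Of the 37 genes, 3 rose with S100A4 shRNA, 0 fell and 34 were not called (limma, Benjamini-Hochberg adjusted p under 0.05 over all genes). The 3 that rose were IFI6, OAS1 and SAMD9L. Over all genes 6.08% were called higher and 5.49% lower, together 11.6%, and the 8.11% called among the interferon-stimulated genes lies near that background. At an unadjusted limma p under 0.05, 6 of the genes were higher and 4 lower, against 12.4% and 14.0% of all genes. On the authors' deposited p-values, adjusted here, 1 was higher and 0 were lower, while 2.12% of all genes were called in either direction. Without overlap between the groups, 7 genes were higher (beside 14.3% of all genes) and 9 lower (beside 18.5%), together 16 or 43.2% (beside 32.8%). The median log2 fold of the 37 genes was -0.04, beside -0.03 over all genes.

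Basal levels differed widely among the genes, from about 3.5 for BST2 to about 13 for the kinase EIF2AK2. On all 6 arrays 8 of the 37 genes lay below that array's negative control median, namely IFIT2, OAS2, MX2, RSAD2, CMPK2, BST2, IFI27 and IFI44L. All 8 lay above the medians of the antigenomic controls. Only 9 lay above the negative controls' 90th percentile on all 6 arrays: EIF2AK2, PARP14, IFI6, DTX3L, OAS3, RIGI, IFI35, HERC6 and IRF9. Of the other called genes, OAS1 passed this mark on 4 arrays and SAMD9L on 0. Some classical markers of an interferon response were at or near the negative controls in both groups, among them ISG15, MX1, IFIT1 and IFI44. Others were well above them, among them IFI6, OAS3, OAS1 and USP18 (means over all arrays of 8.39, 7.41, 6.62 and 6.50). The 17 genes above the median signal of all genes had a median log2 fold of 0.14, beside 0.01 for all 12570 such genes, and the 3 called genes were among them. Above the median signal 20.4% of all genes were called. The 20 genes at or below it had a median of -0.06, as did all 12571 such genes (-0.06).

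**Figure D1:**
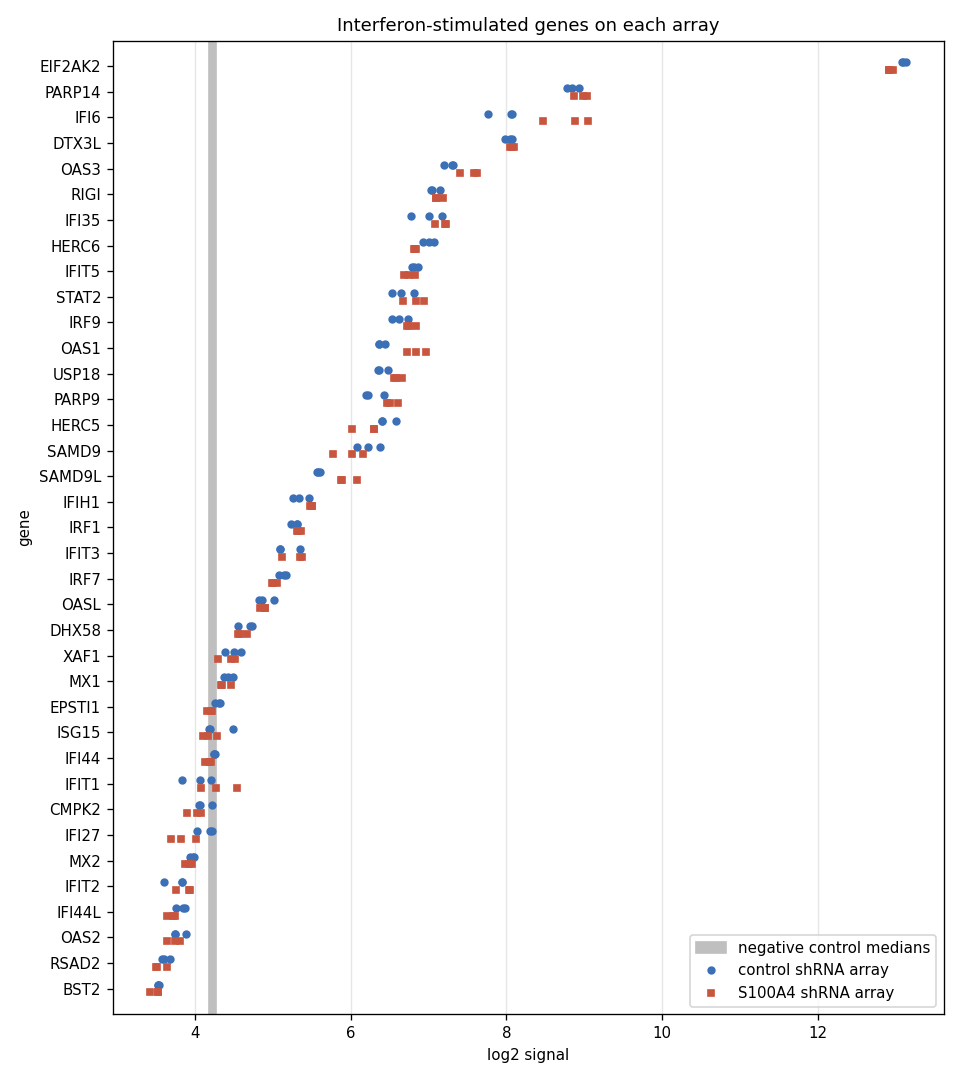
Log2 signal of each of the 37 genes (vertical axis, ordered by mean) on the 3 control shRNA arrays (circles) and the 3 S100A4 shRNA arrays (squares), with the range of the negative control medians in grey. In 7 genes, among them IFI6, OAS1 and SAMD9L, all squares lie to the right of all circles. The 8 genes below the negative controls lie at the bottom.

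IFI6 encodes a small hydrophobic protein of the endoplasmic reticulum and mitochondria that blocks the formation of flavivirus replication sites. It read 8.08, 7.77 and 8.06 in the control group against 8.88, 8.47 and 9.05 under S100A4 shRNA (log2 signal). Every S100A4 shRNA array was above every control array. Its means were 7.97 ± 0.17 and 8.80 ± 0.30 (SD, n = 3 each). IFI6 rose 1.78-fold, or by 0.83 on the log2 scale with an SE of 0.16 (limma adjusted p = 0.0141), the largest rise among the 37 genes. The call was lost without S100A4 shRNA replicate 1 (limma adjusted p = 0.0541), and in the authors' deposited table the ratio was 1.33 (adjusted p = 0.115). IFI27, a related small protein of the same ISG12 family, read 4.03, 4.23 and 4.20 against 3.70, 3.82 and 4.02. These values are below the negative control medians and the S100A4 shRNA arrays are the lower ones. It was not called (log2 fold -0.30, SE 0.10, limma adjusted p = 0.0919), and at this level the value was not ranked against those of brighter genes.

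OAS1, OAS2 and OAS3 are enzymes that make 2'-5'-linked oligoadenylates on double-stranded RNA and so activate RNase L, and they lie side by side in the genome in the order OAS1, OAS3, OAS2. OAS1 read 6.45, 6.36 and 6.37 in the control group against 6.98, 6.73 and 6.85 under S100A4 shRNA. Its groups were apart, with means of 6.39 ± 0.05 and 6.85 ± 0.12 (SD, n = 3 each). OAS1 rose 1.37-fold, or by 0.46 on the log2 scale with an SE of 0.08 (limma adjusted p = 0.00912). Over the alternative fits its largest adjusted p was 0.0431, and in the authors' deposited table the ratio was 1.21 (adjusted p = 0.0400). OAS3 read 7.32, 7.20 and 7.30 against 7.59, 7.40 and 7.62. All S100A4 shRNA arrays were higher, but at a log2 fold of 0.26 (SE 0.08, limma adjusted p = 0.0722) it was not called. OAS2, with means of 3.79 and 3.73, was below the negative controls (log2 fold -0.06), and OASL, a family member without the enzyme activity that enhances RIG-I signalling, was at 4.90 and 4.88 (log2 fold -0.03). EIF2AK2 encodes PKR, the kinase that halts translation on double-stranded RNA, and had the highest signal of the list. It read 13.13, 13.09 and 13.08 against 12.96, 12.91 and 12.91. Its log2 fold of -0.17 (SE 0.06, limma adjusted p = 0.0996) was not called although the groups did not overlap, and the authors' deposited table gave a difference of 0.07 in the other direction.

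SAMD9L and SAMD9 are neighbouring paralogues that restrict poxviruses and slow cell growth. SAMD9L read 5.57, 5.59 and 5.61 in the control group against 6.08, 5.88 and 5.89 under S100A4 shRNA. Its groups were apart, with means of 5.59 ± 0.02 and 5.95 ± 0.11 (SD, n = 3 each). SAMD9L rose 1.28-fold, or by 0.36 on the log2 scale with an SE of 0.07 (limma adjusted p = 0.0177). Leaving out any 1 of the 3 control arrays ended the call (limma adjusted p between 0.0528 and 0.0598), and the authors' deposited ratio was 1.18 (adjusted p = 0.0625). SAMD9 read 6.38, 6.22 and 6.08 against 6.16, 6.02 and 5.77, so that the groups overlapped. Its log2 fold was -0.25 (SE 0.12, limma adjusted p = 0.231), which was not called.

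Neighbouring genes of the list had unlike values in some pairs and close values in others. The log2 fold of SAMD9L exceeded that of SAMD9 by 0.61, that of OAS1 exceeded that of OAS3 by 0.20, and that of PARP9 exceeded that of DTX3L by 0.20. Each of these 3 differences, chosen after their values were seen, gave an exact permutation p of 0.1 (two-sided), the smallest possible, so none could pass a threshold of 0.05. The pairs IFIT1 and IFIT5 (0.27 and -0.07) and OAS3 and OAS2 (0.26 and -0.06) were unlike too and were not tested. In these pairs IFIT1 lay near and OAS2 below the negative controls. Close values were found in HERC6 and HERC5 (-0.18 and -0.26). The pairs IFIT2 and IFIT3 (0.12 and 0.10), MX2 and MX1 (-0.05 and -0.05), IFI44L and IFI44 (-0.12 and -0.08) and CMPK2 and RSAD2 (-0.11 and -0.07) were close too, each with at least 1 gene below the negative controls.

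The promoter stretches of the called genes are shown with those of IFI27, OAS3 and SAMD9, the relatives that were not called, so that their ISRE-like letters can be compared. Each is the 200 bases before the transcription start, read 5′ to 3′ on the gene's strand from RefSeq (build GRCh38.p14), and capitals mark matches on either strand to 3 motifs. They are the ISRE (GAAA and GAAA with any 2 bases between them), the short-spaced ISRE (GAAANGAAA, added after the promoters were seen) and the GAS (TTCNNNGAA). For IFI27, which has 2 start sites in RefSeq, the first listed is shown.
IFI6, chr1:27672193-27672392, minus strand: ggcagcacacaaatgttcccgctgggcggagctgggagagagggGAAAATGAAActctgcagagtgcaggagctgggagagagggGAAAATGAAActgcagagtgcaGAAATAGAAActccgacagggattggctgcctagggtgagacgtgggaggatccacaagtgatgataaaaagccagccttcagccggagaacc
IFI27, chr14:94110536-94110735, plus strand: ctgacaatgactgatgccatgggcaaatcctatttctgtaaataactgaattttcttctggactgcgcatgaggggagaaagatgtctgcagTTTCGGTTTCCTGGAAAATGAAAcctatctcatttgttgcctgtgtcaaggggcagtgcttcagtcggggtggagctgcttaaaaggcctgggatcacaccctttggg
OAS1, chr12:112906762-112906961, plus strand: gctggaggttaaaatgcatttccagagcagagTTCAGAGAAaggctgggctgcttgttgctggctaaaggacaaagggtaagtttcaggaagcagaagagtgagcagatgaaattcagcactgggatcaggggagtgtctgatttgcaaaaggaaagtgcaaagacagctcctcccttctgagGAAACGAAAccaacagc
OAS3, chr12:112938274-112938473, plus strand: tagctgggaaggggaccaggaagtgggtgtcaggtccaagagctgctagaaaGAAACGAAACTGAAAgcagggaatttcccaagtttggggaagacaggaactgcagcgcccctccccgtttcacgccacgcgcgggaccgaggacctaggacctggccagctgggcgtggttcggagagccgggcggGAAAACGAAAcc
SAMD9L, chr7:93148386-93148585, minus strand: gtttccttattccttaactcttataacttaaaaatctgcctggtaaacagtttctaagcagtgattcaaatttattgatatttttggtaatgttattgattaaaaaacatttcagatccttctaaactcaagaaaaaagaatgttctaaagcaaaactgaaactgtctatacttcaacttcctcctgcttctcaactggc
SAMD9, chr7:93117980-93118179, minus strand: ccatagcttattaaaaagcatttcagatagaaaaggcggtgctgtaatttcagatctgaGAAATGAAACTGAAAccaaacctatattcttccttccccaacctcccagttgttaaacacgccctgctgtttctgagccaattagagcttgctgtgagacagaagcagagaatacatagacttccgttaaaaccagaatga

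Counted from the transcription start, IFI6 held 3 ISRE matches, whose first bases are at -156, -115 and -93. OAS1 held no ISRE match but a short-spaced ISRE match at -17 and a GAS match at -168. OAS3 held ISRE matches at -143 and -12, the first overlapping a short-spaced match at -148. SAMD9L held no match to any of the 3 motifs in its window, and SAMD9 held an ISRE match at -136 overlapping a short-spaced match at -141. IFI27 held ISRE matches on opposite strands at -108 and -95, and a GAS match at -101 overlaps both. A match is a description of letters and not a site of binding.

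Promoter windows from 250 bases before to 50 after a start were listed in RefSeq for 30 of the 37 genes, all but IRF7, DHX58, USP18, IFIT2, OAS2, OASL and MX2. Of these 30 genes 20 held the ISRE in at least 1 window, a share of 66.7% beside 4.38% of the 27305 genes with a window. The short-spaced ISRE was found in 12 of the 30, beside 3.87% of all genes, and the GAS in 9, beside 9.38%. Of the 3 called genes 1 held the ISRE. Genes with a low signal held it as well, among them ISG15, IFIT1, IFI44L, BST2 and MX1.

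**Figure D2:**
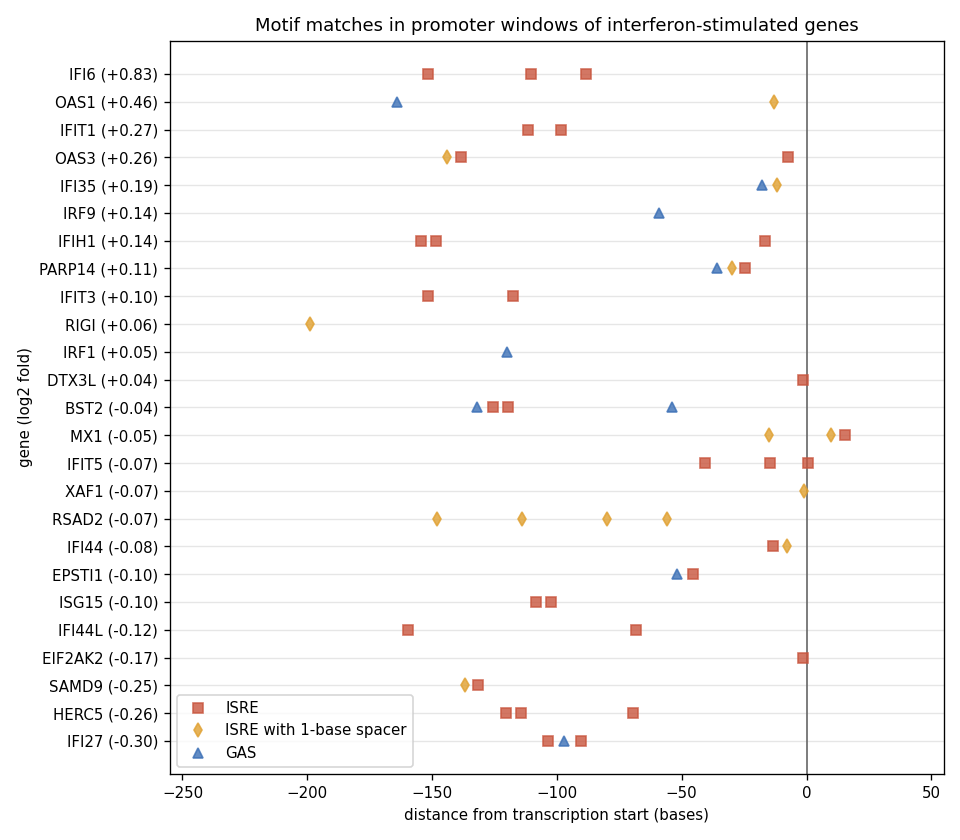
Positions of motif matches (midpoints, in bases from the transcription start) in the first RefSeq window of each of the genes that held one, ordered by log2 fold with S100A4 shRNA, which stands beside the name. ISRE matches occur from IFI6 at the top (0.83) to IFI27 at the bottom (-0.30), and OAS1 has none.

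None of the regulators and sensors was called (0 of 7, beside 11.6% of all genes). At that share a count of 0 in a group this small says little about the group. IRF9, the DNA-binding part of the ISRE-binding complex, read 6.74, 6.54 and 6.62 against 6.76, 6.73 and 6.83 (log2 fold 0.14), and its partner STAT2 read 6.82, 6.53 and 6.65 against 6.84, 6.67 and 6.95 (0.15). In both the highest values were on S100A4 shRNA arrays and the groups overlapped. IFIH1, which encodes the RNA sensor MDA5, read 5.26, 5.47 and 5.34 against 5.47, 5.50 and 5.50, without overlap (log2 fold 0.14, limma adjusted p = 0.2499). The sensor RIG-I (RIGI, listed under its older symbol DDX58) had means of 7.08 and 7.13 (log2 fold 0.06), and DHX58, which encodes the regulator LGP2, of 4.67 and 4.60 (-0.07). IRF7, the factor that amplifies interferon production, read 5.077, 5.148 and 5.170 against 5.001, 5.054 and 4.996. It was lower without overlap (log2 fold -0.11, limma adjusted p = 0.263), and IRF1, which drives basal and induced antiviral genes, had means of 5.29 and 5.34 (0.05). The authors' deposited table gave ratios of 0.859 for IRF7 and 1.0963 for RIGI.

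The ISG15 system attaches the ubiquitin-like protein ISG15 to other proteins, with HERC5 as its main ligase and USP18 as the protease that removes it and also dampens the type I receptor. ISG15 read 4.49, 4.20 and 4.19 in the control group against 4.29, 4.11 and 4.17 under S100A4 shRNA, at the negative controls (log2 fold -0.10). USP18 read 6.48, 6.35 and 6.36 against 6.65, 6.58 and 6.56, and HERC5 read 6.58, 6.41 and 6.41 against 6.30, 6.02 and 6.29. The groups did not overlap for either, in opposite directions, and neither was called (log2 folds of 0.20 and -0.26, limma adjusted p = 0.0981 and 0.126). HERC6, the neighbour of HERC5 the main ISG15 ligase in mouse, had means of 7.01 and 6.82 and a log2 fold of -0.18 (limma adjusted p = 0.104). PARP9 and DTX3L form a complex of an ADP-ribosyltransferase-like protein and a ubiquitin ligase and are neighbours. PARP9 read 6.43, 6.22 and 6.20 against 6.61, 6.46 and 6.51, a log2 fold of 0.25 (limma adjusted p = 0.0992) without overlap, whereas DTX3L had means of 8.03 and 8.07 (0.04). PARP14, an ADP-ribosyltransferase of the same family, had means of 8.85 and 8.96 (0.11), and a ratio of 1.23 in the authors' deposited table. In all, 0 of these 7 genes were called, beside 11.6% of all genes.

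The IFIT proteins bind viral RNA whose ends differ from the host's and block its use. Of their genes 0 of 4 were called, beside 11.6% of all genes. IFIT1 read 3.83, 4.21 and 4.07 in the control group against 4.08, 4.27 and 4.55 under S100A4 shRNA. Its log2 fold of 0.27 had an SE of 0.14, the widest after IFI6, and the groups overlapped around the negative control level. IFIT2 had means of 3.76 and 3.88 and IFIT3 of 5.18 and 5.28 (log2 folds 0.12 and 0.10). IFIT5, the only one of the 4 above the median signal of all genes, had means of 6.82 and 6.76 (-0.07).

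Effectors acting on virus entry, replication and release had low values and 0 of 5 were called, beside 11.6% of all genes. The GTPases MX1 and MX2, which trap viral nucleocapsids, had means of 4.43 and 4.38 and of 3.97 and 3.92. RSAD2 encodes viperin, which makes a chain-terminating nucleotide, and CMPK2, its neighbour, the kinase that supplies viperin's substrate. Their means were 3.62 and 3.55 and 4.11 and 4.01. BST2, the tetherin that holds budding virions at the cell surface, had means of 3.54 and 3.49. Of these 5 genes all but MX1 lay below the negative controls, and the log2 folds, from -0.11 to -0.04, were not ranked.

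Of the remaining induced genes, IFI35, which forms a complex with NMI, read 7.175, 6.779 and 7.001 against 7.084, 7.209 and 7.227 (log2 fold 0.19, limma adjusted p = 0.299). The groups overlapped through 1 high control array. IFI44 and IFI44L, a pair of neighbours, had log2 folds of -0.08 and -0.12, and EPSTI1 of -0.10, each lower without overlap but near or below the negative controls. XAF1, an antagonist of the apoptosis inhibitor XIAP, had means of 4.50 and 4.43 (-0.07).

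**Figure D3:**
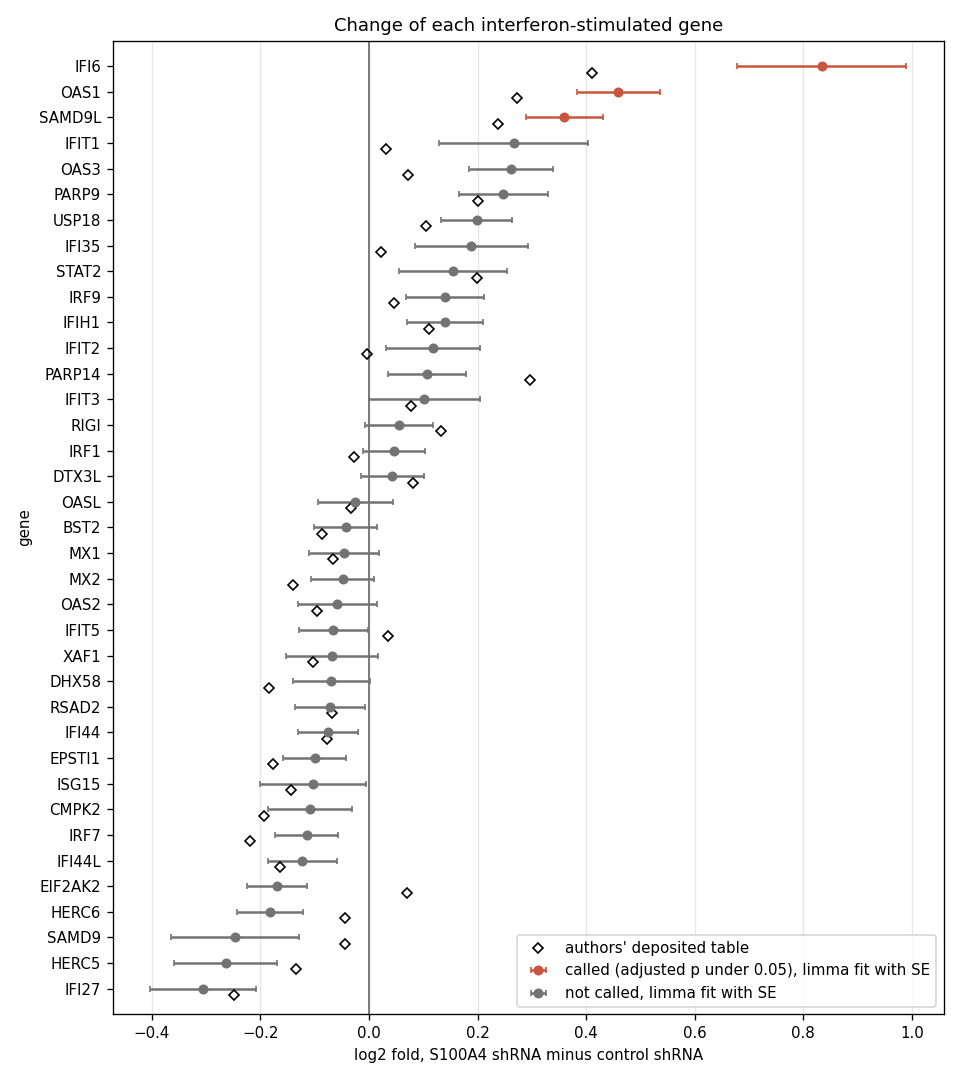
Log2 fold (S100A4 shRNA minus control shRNA) of each gene with limma's SE, red where called, with the difference from the authors' deposited table as diamonds. IFI6 (0.83), OAS1 (0.46) and SAMD9L (0.36) stand at the top, and the diamonds of these 3 genes are nearer to 0.

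**Figure D4:**
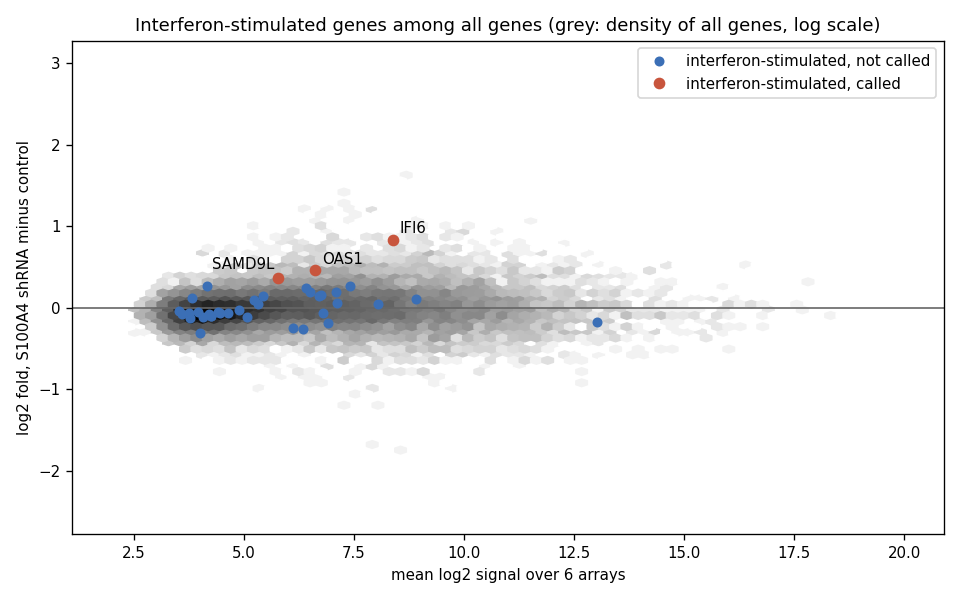
Log2 fold against mean log2 signal for all 25141 genes (grey density on a log scale) and for the 37 interferon-stimulated genes (points). The 3 called genes lie above the median signal, and most others lie within the dense band around 0.

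Direction depends on how the arrays are scaled. When each array was centred on its positive housekeeping controls, every log2 fold moved up by 0.23, the median of all genes from -0.03 to 0.19, and the calls over all genes from 1529 higher and 1381 lower to 4838 higher (19.2%) and 315 lower (1.25%). Under that scaling 12 of the 37 genes were called higher and 0 lower, and 17 of the 20 genes below 0 turned above 0. HERC5, IFI27 and SAMD9 stayed below 0. IFI6, OAS1 and SAMD9L were called under both scalings and under quantile normalization.

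The rest of the interferon pathway was read from lists by role, in the same fit. Of 130 measured genes 23 rose, 6 fell and 101 were not called, a share of 22.3% called beside 11.6% of all genes. Of the 130 genes 76 lay above the median signal, where 20.4% of all genes were called. Of the 29 calls 18 were lost in at least 1 fit with an array left out: IFNAR2, IFNGR2, IL10RB, STAT3, MYD88, TRIM25, HLA-B, HLA-C, HLA-E, TAP1, GBP1, GBP3, CD274, TRIM5, TRIM34, DDX60, DDX60L and SLFN5. When centred on positive controls, all 6 genes that fell lost their call (log2 folds from -0.22 to -0.05, limma adjusted p from 0.116 to 0.732), and the 23 that rose kept theirs. Among 21 interferon genes, 13 were below the negative control median on all arrays, and IFNB1, a type I interferon, had means of 3.45 and 3.42. IFNE, the epithelial type I interferon known from the female reproductive tract, was the only 1 of the 21 above the median signal of all genes. It read 8.90, 8.91 and 8.73 against 10.22, 9.84 and 9.55. It rose by a log2 fold of 1.02 (SE 0.16, limma adjusted p = 0.00650). IFNE lies within MIR31HG, a long non-coding RNA gene that also rose, from 8.005 to 8.936 (log2 fold 0.93, limma adjusted p = 0.0122), so the values of these overlapping genes cannot be assigned to either with certainty.

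Of 6 receptor chains 3 rose, beside 6.08% of all genes, and 5 of the 6 lay above the median signal. IFNAR2 (log2 fold 0.33), IFNGR2 (0.41) and IL10RB (0.33), a chain of the type III receptor, were called, and IFNAR1 (0.22), IFNGR1 (0.06) and IFNLR1 (-0.01) were not called. A read-through transcript joins IFNAR2 and IL10RB in RefSeq, and IFNGR2 overlaps TMEM50B, which also rose (0.29). Of the kinases and STATs, STAT3 rose (0.29), while JAK1 (-0.22), JAK2 (0.01) and TYK2 (0.08) were not called.

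In nucleic acid sensing 15 of 17 genes were not called, and the 11.8% called lies near the 11.6% of all genes. The adaptor MYD88 rose (log2 fold 0.30) and TRIM25, the ubiquitin ligase that activates RIG-I, fell (-0.45). The call of MYD88 was lost in 5 of 6 fits with an array left out, and that of TRIM25 in 2 and when centred on positive controls. For MYD88 the authors' deposited table had the opposite sign (-0.053). Among 9 inhibitors the STAT3 inhibitor PIAS3 (0.56) and IRF2, which competes with IRF1 for its sites (0.55), rose, and SOCS1 and SOCS3 were not called (0.01 and -0.02). The share of inhibitors called was 22.2%. Of the 9 genes 7 lay above the median signal, where 20.4% of all genes were called.

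Of 27 targets of interferon-gamma and of antigen presentation, 6 rose, 2 fell and 19 were not called, a share of 29.6% called beside 11.6% of all genes and 20.4% of those above the median signal, where 16 of the 27 lay. Among those that rose were HLA-C (log2 fold 0.43), HLA-B (0.40), HLA-E (0.30), CD274, which encodes PD-L1 (0.29), and the GTPase GBP3 (0.34), while the peptide transporter TAP1 (-0.34) and GBP1 (-0.28) were called lower. Both calls were lost in 5 of 6 fits with an array left out and when centred on positive controls. Of the named genes that rose, CD274 lost its call in 6 of 6 fits with an array left out. HLA-E and GBP3 lost it in 5, HLA-B in 3 and HLA-C in 1. GBP1 had means of 4.44 and 4.17, and 2 of its S100A4 shRNA values were below the negative control median. HLA-B, HLA-C and HLA-E are close in sequence and their probes may share signal. Each has several clusters, of which the brightest was used. With all clusters of a gene averaged, the log2 folds were 0.31 for HLA-B, 0.36 for HLA-C and 0.30 for HLA-E, all still called. CXCL10 and CXCL9, chemokines used as markers of an interferon response, had means of 3.61 and 3.36 and of 3.96 and 3.91 and were not called.

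Of 41 further interferon-stimulated genes 6 rose, 3 fell and 32 were not called, a share of 22.0% called. Of the 41 genes 30 lay above the median signal, where 20.4% of all genes were called. The secreted glycoprotein LGALS3BP rose most, with means of 8.59 ± 0.12 and 9.99 ± 0.28 (SD, n = 3 each) and a log2 fold of 1.40 (limma adjusted p = 0.00113). The authors' deposited table gave it a log2 difference of 0.62 (adjusted p = 0.0512). DDX60 (0.48), its paralogue DDX60L (0.26), the germ granule protein TDRD7 (0.40) and the overlapping restriction factor genes TRIM5 (0.40) and TRIM34 (0.36) also rose. SLFN5 (-0.41), the mitochondrial ribonuclease PNPT1 (-0.36) and the dNTP hydrolase SAMHD1 (-0.33) fell, and SAMHD1 had a value of 0.030 in the authors' deposited table. In the IFITM family, membrane proteins that block virus entry, IFITM2 (1.52), IFITM3 (1.23) and IFITM1 (0.83) rose and IFITM5 and IFITM10 were not called. The authors' deposited table gave log2 differences of 0.66, 0.51 and 0.41 for the 3 genes. IFITM1 through IFITM3 are close in sequence and may share probe signal.

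**Figure D5:**
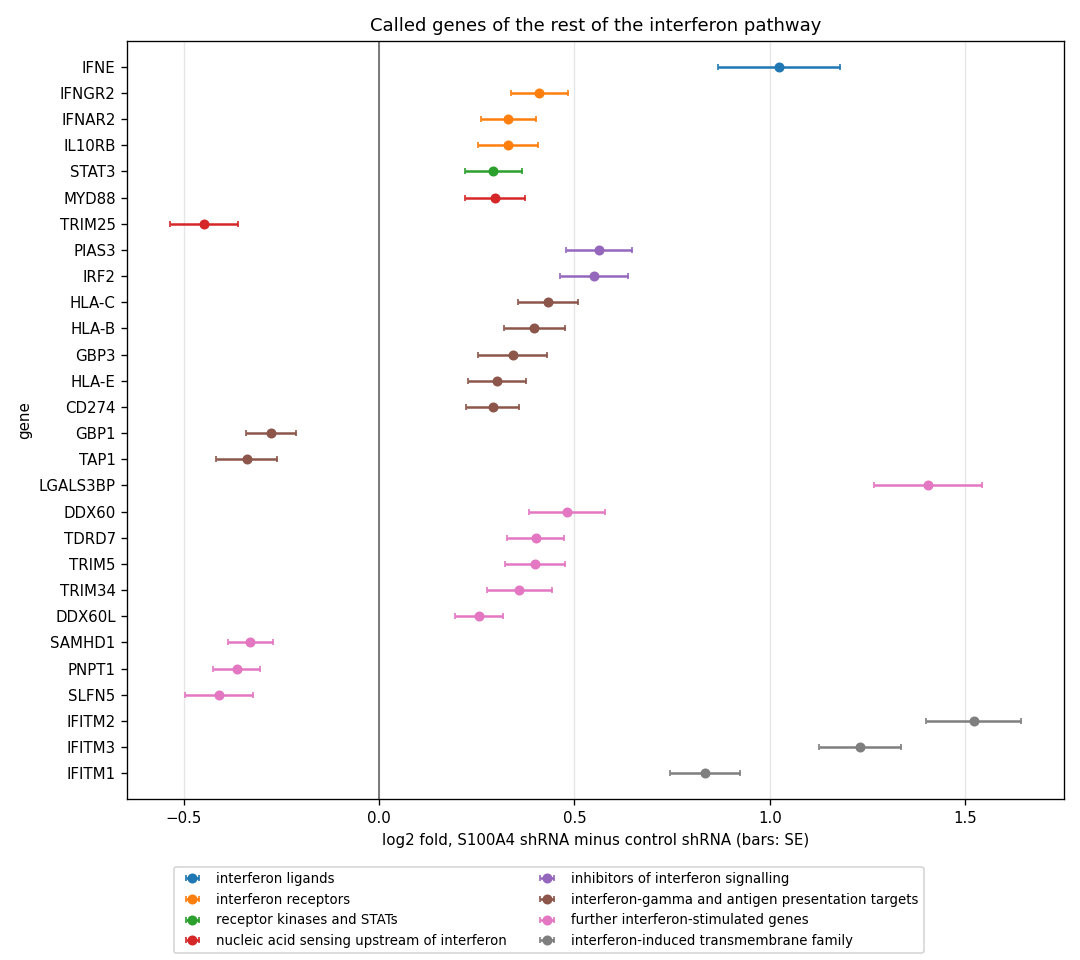
Log2 fold with limma's SE of 28 of the 29 called genes of the other pathway lists, coloured by list. IFITM2 (1.52), LGALS3BP (1.40), IFITM3 (1.23) and IFNE (1.02) lie furthest to the right, and 6 genes lie left of 0.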

How the data were processed

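RNA of 6 samples was labelled with biotin and hybridised to whole-transcript arrays, per the labels' protocols. The authors deposited log2 signals for each transcript cluster on each array, and the program that made them is not stated in the labels. The deposited workbook holds, per the file headers, group means on the log2 scale, p-values without adjustment and linear ratios. The submitters' processing notes list Partek 6.0. The workbook comes from another summarisation, since its levels correlate with the value table across genes at only r = 0.780, and it has no values per array. It supplied gene symbols and an alternative test. Symbols were updated through RefSeq, and 26830 clusters with a symbol gave 25141 genes.

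Groups were taken from the sample titles, 3 arrays each. The deposited log2 values were fitted with limma 3.58.1 (lmFit, eBayes; R 4.3.3). P-values were two-sided and adjusted by Benjamini-Hochberg across the 25141 genes, with no filter and no covariate, and called at 0.05. Single values were tested by exact permutation. The precision is limited by the number of arrays. The script was tested on simulated data. Members and lists were chosen with earlier results of these data known. All 37 members were named, and of the other lists the called genes, while PTPRC, IFNB1, CXCL9, CXCL10, SOCS1, SOCS3 and the uncalled receptors and kinases were named after their values were seen. TRIM22 had no named cluster and was not analysed here. Alternatives were a replicate block, array weights, a trended and robust eBayes, a filter on dim genes, quantile normalization, centring on positive controls, the mean of a gene's clusters, the authors' p-values, a fold threshold of 1.5 and each array left out. Background correction could not be varied from these files, and no slide or scan batch is given. Some genes of these lists are not reported here.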

Additional observations from a re-analysis of the deposited data

How the results depend on the processing

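S100A4 stayed lower and called under all alternatives tried. The count of 3 interferon-stimulated genes called higher became 6 with array weights, 12 when centred on positive controls, 1 on the authors' p-values and 1 at a fold of at least 1.5, and ran from 2 to 4 with 1 array left out. The count called lower was 0 except under quantile normalization, where HERC6 made it 1. The median log2 fold of these genes moved from -0.04 to 0.013 with quantile normalization, 0.19 when centred on positive controls and 0.14 when the lower 50% of genes were left out, which leaves 17 of the 37 genes. It ran from -0.04 to -0.01 with 1 array left out. The 29 other pathway genes called became 0 on the authors' p-values and 5 at a fold of at least 1.5, and ran from 14 to 25 with 1 array left out (18 without control replicate 1, 14 without control replicate 2, 15 without control replicate 3, 16 without S100A4 shRNA replicate 1 and 18 without S100A4 shRNA replicate 3). In the authors' table MYD88 (-0.053) and SAMHD1 (0.030) reversed. The cause of these changes was not tested.

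Of the 34 genes not called, 10 were called under at least 1 alternative, and 4 of these (USP18, PARP9, OAS3 and HERC6) under one other than centring on positive controls. Whether the replicate numbers shared by the groups pair the arrays could not be settled with so few arrays. Same-numbered arrays deviated together at r of 0.08, 0.17 and -0.01, and unlike-numbered arrays at r from -0.21 to 0.17. With the replicate block 3 of the interferon-stimulated genes and 28 of the other pathway genes were called. For genes below the negative controls on all arrays signal over background limits the reading, and their log2 folds are values only.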
